A study of Mus musculus with 10 samples.

Results

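The genes that carry out MHC class II antigen presentation were followed in mRNA-seq of adipocyte precursors (APs) cultured with or without the type 2 cytokine IL-4. They are 7 of the 18384 genes listed in the mRNA-seq libraries, and were found by their symbols: H2-Aa, H2-Ab1 and H2-Eb1, which encode chains of the class II molecules themselves, Cd74, which encodes the invariant chain, H2-DMa and H2-DMb1, which encode the chains of the peptide editor H2-DM, and Ciita, which encodes the class II transactivator. The APs came from subcutaneous white adipose tissue (scWAT) of C57BL/6J mice and were isolated on magnetic columns, by depleting cells that bear CD45 or CD31 and keeping those that bear SCA-1. Control cultures received growth medium alone, and IL-4 was added to the medium of the other cultures 1 day after seeding. Both groups were harvested on day 4, with 3 libraries each (control replicates 1 to 3 and IL-4 replicates 4 to 6), and the labels give no age, sex or number of animals. Nothing in the labels says whether the libraries came from separate cell isolations, so the p-values measure the spread between these cultures only. The question put to the data was how the level of each gene of the class II pathway differed between the 2 groups.

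MHC class II molecules are pairs of an alpha and a beta chain that display peptides from endocytosed proteins to CD4+ T cells. New pairs assemble in the endoplasmic reticulum with the invariant chain, which blocks the peptide groove and guides them to endosomes, where proteases degrade it and H2-DM exchanges its last fragment for other peptides. Dendritic cells, B cells and macrophages hold class II molecules constitutively or after activation, whereas other cells, fibroblasts and cells of fat tissue among them, produce them mainly after interferon-gamma, through Ciita. C57BL/6 mice make only the I-A molecule at the cell surface, because their E alpha gene is not functional.

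The libraries held 28526782 to 29057787 expected counts each. Control replicate 3 and IL-4 replicate 6 stood apart from the rest of their groups. Transcripts under 1500 bases were high in them. Each library was set against the mean of the other libraries of its group, over tested genes with a mean of at least 100 normalized counts. The median deviations of these transcripts were 0.16 and 0.32 on the log2 scale, against -0.04 to -0.19 in the other 4 libraries. Of the class II transcripts, those of H2-Aa, H2-Ab1, H2-DMb1 and Cd74 are under 1500 bases. Control replicate 3 also held 77 reads of Chil3, a gene with 4 and 9 reads in the other controls and 58293 to 75844 reads in the IL-4 libraries. Class II values without control replicate 3 and IL-4 replicate 6 are therefore given beside the results.

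The labelled cell type was checked against its markers. All 10 AP marker genes were listed, with a summed level of 6244 to 6602 FPKM (fragments scaled by transcript length and library size) in the control libraries and 9429 to 10329 FPKM with IL-4. Most of this sum was Col1a1 and Col3a1, at 3307 and 2181 FPKM on average in the controls, and 7 of the 10 were higher, 2 (Pdgfrb and Lum) lower and 1 not called. Macrophage markers were also present: 12 such genes summed to 3512 to 4537 FPKM in the control libraries against 1373 to 1787 FPKM with IL-4, with 10 of the 12 lower and 1, Mrc1, higher by the test used below. The largest part of this sum was Lyz2, at 2739 FPKM on average in the controls and 776 FPKM with IL-4. Ptprc, which encodes CD45, was among the 12 at 16.95 to 19.0 FPKM in the controls and 8.48 FPKM or less with IL-4. Of 8 dendritic cell markers, Itgax and Batf3 rose, with log2 fold changes of 4.13 (SE 0.12, edgeR adjusted p = 1.99e-07) and 2.69 (SE 0.32, adjusted p = 0.000312), while Siglech was not listed and Flt3 and Cd209a stayed at 3 counts or fewer in every library. Summed over the list, dendritic markers were at 3.24 to 3.64 FPKM in the controls against 27.4 to 29.1 FPKM with IL-4, and this sum was mostly Itgax, at 1.61 FPKM on average in the controls and 25.02 FPKM with IL-4. Zbtb46, a factor of the dendritic lineage, passed no test (log2 fold change 0.04, SE 0.22). Xcr1 and Clec9a were not tested. Xcr1 was at 9.16 ± 2.81 normalized counts in the controls and 4.58 ± 2.71 with IL-4 (SD, n = 3), with overlap. Clec9a was at 3.48 ± 0.547 in the controls and 7.36 ± 3.02 with IL-4, without overlap, on 3 to 10 reads per library. The B cell markers Ms4a1, Cd79a, Cd79b, Pax5 and Fcer2a had 3 counts or fewer in every library, and the T cell genes Cd3e, Cd3d and Cd3g were not listed. Other genes of these lists had more reads: Cd22 was higher with IL-4 (log2 fold change 0.36, SE 0.12, edgeR adjusted p = 0.0447), Cd4 and Lck were lower (log2 fold changes -2.33, SE 0.28, and -0.58, SE 0.16), and Cd8a was not called. Of 6 endothelial markers, 2 were higher (Vwf and Tek, log2 fold changes 3.08 and 0.81), 2 lower (Cdh5 and Emcn, -1.60 and -1.49) and 2 not called. For each of these counts of called markers, the shares over all tested genes were 19.0% higher and 18.4% lower. The class II reads cannot be assigned to a cell type in these bulk libraries, in which fewer cells of a type and less RNA per cell cannot be told apart.

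Class II chains and the invariant chain rose with IL-4, whereas the H2-DM genes passed no test. The comparison used edgeR's quasi-likelihood test on expected counts, over the 14009 genes that passed a filter on low counts (the level of 10 reads in a library of median size, reached in at least 3 libraries), with Benjamini-Hochberg adjustment over all of them. Of the 7 genes, 6 were tested and Ciita was not. At an adjusted p under 0.05, 4 of the 6 were higher and 0 lower, against 19.0% of all tested genes higher and 18.4% lower. All 4, namely Cd74, H2-Aa, H2-Eb1 and H2-Ab1, lay beyond a log2 fold change of 1, as did 5.77% of tested genes in this direction and 5.26% in the other. The groups did not overlap in normalized count for 5 of the 6 tested genes, which is the case with IL-4 higher for 25.2% of tested genes. H2-Aa and H2-Eb1 passed the filter through their IL-4 libraries, with 10 or more reads in 0 and 1 of the control libraries, so these counts are a description and carry no weight as a test of the group of genes. Without the filter, the median log2 fold change of the 7 genes was 1.52, and that of all 18345 genes with a read was 0.01.

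**Figure D1:**
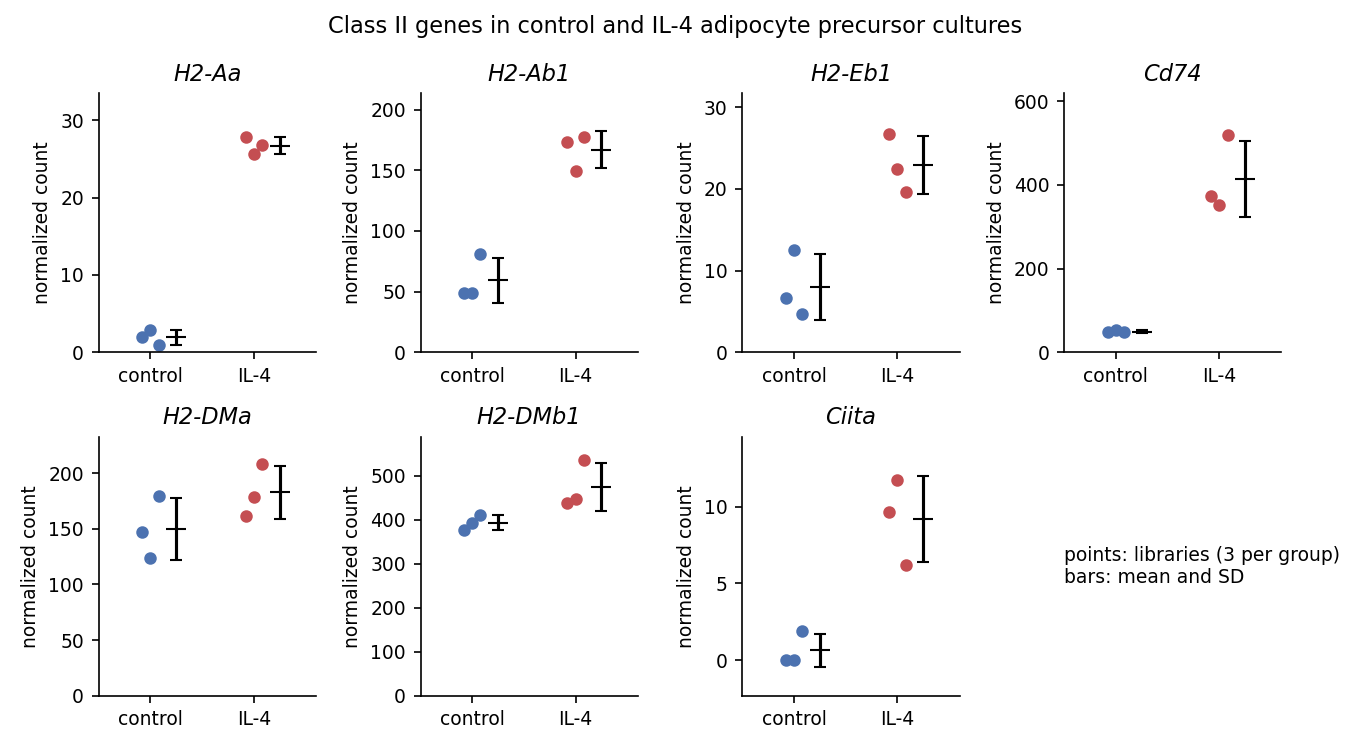
Normalized count (y axis of each panel, linear, read count scaled to the mean library size) of the 7 class II genes in the 3 control and 3 IL-4 libraries, with points for libraries and bars for the mean and SD. The 3 IL-4 libraries lie above the 3 controls for every gene except H2-DMa, whose control replicate 3 lies above IL-4 replicates 4 and 5.

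Cd74 encodes the invariant chain, the chaperone of new class II molecules. It had 50, 55 and 51 expected counts in the control libraries against 349, 330 and 502 in the IL-4 libraries, that is 49.4 ± 2.94 and 415 ± 90.4 normalized counts (SD, n = 3 each). The IL-4 libraries did not overlap the controls, and replicate 6 was the highest of them. The rise came to a log2 fold change of 3.07 (SE 0.18, edgeR adjusted p = 7.37e-06), and to 2.85 without control replicate 3 and IL-4 replicate 6. On the length-scaled level, Cd74 went from 1.51 ± 0.0964 to 11.3 ± 2.75 FPKM.

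The gene is on chromosome 18 (60803849 to 60812652, plus strand, GRCm38). RSEM lists a mean transcript length for each gene, weighted by how much each transcript contributes. For Cd74 this length lay between those of its RefSeq transcripts of 1223 bases (8 exons) and 1415 bases (9 exons), which correspond to the p31 and p41 forms of the invariant chain. The longer form holds an added exon of 192 bases, which encodes the thyroglobulin domain that binds cysteine proteases. The transcript set behind the files may be an older one, since the listed length of H2-Aa, 1084 bases, differs from its RefSeq transcript of 1128 bases, and the shares hold only if the Cd74 lengths were those used. The share of the longer form that these lengths imply was 33.3%, 17.4% and 28.99% in the controls against 25.9%, 24.9% and 18.3% with IL-4. The groups overlapped, with means of 26.6% ± 8.23 and 23.04% ± 4.16 (SD, n = 3; exact permutation test, two-sided, p = 0.6). With 50 to 55 control reads over the whole gene, a small shift between the forms was not detectable at this depth.

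H2-Aa and H2-Ab1 encode the alpha and beta chains of I-A. H2-Aa had 2, 3 and 1 reads in the control libraries against 26, 24 and 26 reads in the IL-4 libraries, so the IL-4 libraries were close to each other and far from the controls. Its log2 fold change was 3.73 (SE 0.35, edgeR adjusted p = 9.41e-05), with 3.42 without the 2 libraries that stood apart. Summed over libraries, 6 reads stood against 76, a ratio of 14.1 after scaling (95% interval 6.18 to 39.6, for counting error only).

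H2-Ab1 was the more abundant chain, with 51, 51 and 86 reads in the control libraries against 162, 140 and 172 reads with IL-4. Control replicate 3 was the highest control and still lay below every IL-4 library. The level rose from 59.4 ± 18.5 to 167 ± 15.2 normalized counts, a log2 fold change of 1.49 (SE 0.20, edgeR adjusted p = 0.000699). Without control replicate 3 and IL-4 replicate 6 the value was 1.73.

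H2-Eb1 encodes the E beta chain, whose partner E alpha is missing in this strain. Its reads numbered 7, 13 and 5 in the controls against 25, 21 and 19 with IL-4, without overlap. The log2 fold change was 1.52 (SE 0.36, edgeR adjusted p = 0.0110), and 1.35 without the 2 libraries that stood apart. With control replicate 1 left out, the log2 fold change was 1.41 and the adjusted p 0.0507, so the call was lost. The annotated remnant of the E alpha gene, H2-Ea-ps, and the second E beta gene, H2-Eb2, were not listed in any library.

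H2-DMa and H2-DMb1 encode the chains of H2-DM, which sits in endosomes and edits the peptides that class II molecules hold. H2-DMa had 155, 129 and 191 expected counts in the controls against 151, 167 and 202 with IL-4, and the groups overlapped. Its log2 fold change was 0.28 (SE 0.16, edgeR adjusted p = 0.208), and 0.33 without control replicate 3 and IL-4 replicate 6. H2-DMb1 had 395.57, 410.23 and 437.32 expected counts in the controls against 408.83, 418.91 and 518.92 with IL-4. Its counts are not whole, as RSEM gives for reads shared between genes, and those of its close copy H2-DMb2 are not whole either, so its value is uncertain to that extent. The log2 fold change of H2-DMb1 was 0.27 (SE 0.10, edgeR adjusted p = 0.0642), and 0.20 without the same 2 libraries. After scaling, its lowest IL-4 library (438 normalized counts) was above its highest control (410 normalized counts). With an added offset for transcript length, chosen after seeing the data, its log2 fold change was 0.19 with an adjusted p of 0.0269.

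Ciita encodes the coactivator that switches on class II genes and does not itself bind DNA. It had 0, 0 and 2 reads in the controls against 9, 11 and 6 reads with IL-4. The IL-4 libraries were all above the controls, yet 1 of them reached 10 reads and the gene did not pass the filter. The scaled ratio of the summed reads, 26 against 2, was 14.5 (95% interval 3.62 to 126, for counting error only). In a fit without the filter its log2 fold change was 3.62 (SE 0.84, edgeR adjusted p = 0.00986). The listed transcript length was 5167 bases in control replicate 3 and in IL-4 replicates 4 and 6. This is the length of the RefSeq transcript that begins furthest downstream among the 5 used in the files, at position 10489781 of chromosome 16 (plus strand, GRCm38), where the gene spans 10480014 to 10531064. In IL-4 replicate 5 the listed length was 5435.24 bases. Ciita uses alternative promoters in different cell types, and at 26 reads their use could not be resolved.

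The genes were also ordered by FPKM, which allows a comparison between genes of different length. In control cultures H2-DMb1 was the highest at 11.9 ± 0.577 FPKM (SD, n = 3), followed by H2-DMa at 3.48 ± 0.678 FPKM. H2-Ab1 at 1.95 ± 0.624 FPKM and Cd74 at 1.51 ± 0.0964 FPKM came next and overlapped each other. H2-Eb1, H2-Aa and Ciita were below 0.3 FPKM in every control library. In IL-4 cultures H2-DMb1 at 12.7 ± 1.67 FPKM and Cd74 at 11.3 ± 2.75 FPKM overlapped at the top, followed by H2-Ab1 at 4.84 ± 0.497 FPKM and H2-DMa at 3.76 ± 0.548 FPKM, which also overlapped. H2-Aa at 0.863 ± 0.0379 FPKM now lay above H2-Eb1 at 0.467 ± 0.0666 FPKM, and Ciita stayed the lowest at 0.0567 ± 0.0153 FPKM. Among all listed genes, the rank of Cd74 by mean FPKM moved from 11298 to 5506 and that of H2-DMb1 from 5710 to 5040.

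Ratios between genes were taken within each library. H2-Aa and H2-Ab1, and H2-DMa and H2-DMb1, encode chains that pair with each other. Cd74 and H2-Eb1 were also set against H2-Ab1, with which their products do not form such a pair. H2-Aa stood at 4.40%, 6.29% and 1.12% of the FPKM of H2-Ab1 in the controls against 17.8%, 19.1% and 16.8% with IL-4, a difference of 2.51 on the log2 scale. The control ratios rest on 1 to 3 reads of H2-Aa, and the difference was 1.76 without control replicate 3. The alpha chain transcript was thus listed far below its beta partner in both groups. The Cd74 to H2-Ab1 ratio was 0.906, 1.02 and 0.551 in the controls against 2.01, 2.21 and 2.76 with IL-4, a log2 difference of 1.53. The groups did not overlap for either ratio (exact permutation test, two-sided, p = 0.1 each, the smallest p that 3 against 3 libraries allow, and 0.2 after adjustment over the 4 ratios compared). H2-DMa stood at 24.0% to 33.4% of H2-DMb1 in the controls against 28.3% to 30.4% with IL-4, with overlap and a log2 difference of 0.03 (exact permutation test, p = 0.9). The H2-Eb1 to H2-Ab1 ratio also overlapped, with a log2 difference of 0.12 (exact permutation test, p = 0.8), and this difference turned to -0.42 without control replicate 3. The sign of the H2-DMa to H2-DMb1 difference turned as well, to -0.10, without control replicate 2.

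**Figure D2:**
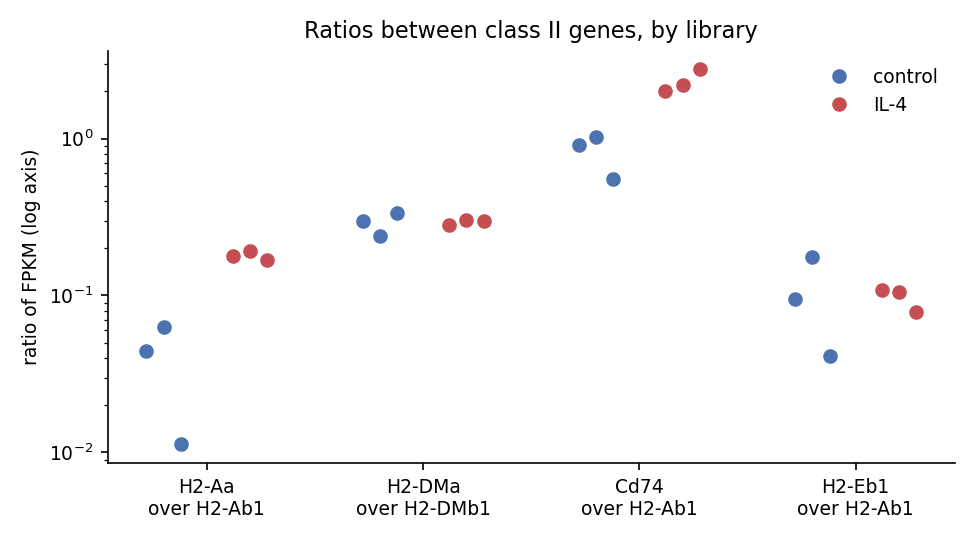
Ratio of FPKM between class II genes (log axis) in each of the 3 control and 3 IL-4 libraries, with 1 point per library. The IL-4 points lie above the controls for H2-Aa over H2-Ab1 and for Cd74 over H2-Ab1, and the groups overlap for the other 2 ratios.

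Promoter sequence was compared between class II genes that rose and class II genes that passed no test. Class II promoters are known for an X box, bound by the RFX complex, and a Y box, bound by NF-Y, which together hold Ciita at the promoter. The RefSeq-based table of promoters (GRCm38.p6, 250 bases before to 50 bases after each start) had entries for 4 of the 7 genes: H2-Aa, H2-Eb1, H2-DMb1 and H2-DMa, the last with 2 starts. Both strands were searched for CTNGNAAC, a part of the X box, and for TGATTGG, which holds the CCAAT box of NF-Y on its other strand. These letters do not overlap each other in the windows shown, and the first were written after the class II sequences had been seen, so their presence there is a description. Among the 4 genes with entries, the stretches that hold both are shown 5′ to 3′ on the strand of the gene. Capitals mark the 2 sets of letters, to let the spacing and the differences between the genes be read. The stretches lie at chr17:34287861-34287913 (minus strand), chr17:34305767-34305818 (plus strand) and chr17:34153088-34153140 (plus strand), all upstream of the first exon.
H2-Aa: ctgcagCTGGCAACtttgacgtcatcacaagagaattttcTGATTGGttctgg
H2-Eb1: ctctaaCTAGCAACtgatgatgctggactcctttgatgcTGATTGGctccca
H2-DMb1: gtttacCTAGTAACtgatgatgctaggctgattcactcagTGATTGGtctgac

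In H2-Aa the X letters began 84 bases and the Y letters 50 bases before the start, in H2-Eb1 94 and 61 bases, and in H2-DMb1 97 and 63 bases. The 2 sets stood 26, 25 and 26 bases apart in this order. H2-DMb1, whose log2 fold change of 0.27 did not pass the test, had the same arrangement as H2-Aa, at 3.73, and H2-Eb1, at 1.52. Neither H2-DMa window had a match, and H2-DMb2 had the Y letters alone. Of 32851 promoters, 13.2% held the X letters and 7.82% the Y letters on either strand, and 27 (0.0822%) held X and then Y with 15 to 45 bases between. These 27 belong to 24 genes, of which H2-Aa, H2-Eb1, H2-DMb1 and H2-Ob are class II genes. Of the 16 tested, 4 were higher and 2 lower with IL-4, against 19.0% and 18.4% of all tested genes. H2-Aa and H2-Eb1 are among the 4, and they passed the filter through their IL-4 libraries. H2-Ob was not tested, and its log2 fold change in the fit without the filter was -3.95. The X letters were written after the class II sequences had been seen. These counts are thus a description and carry no weight as a test of the arrangement.

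H2-Ab1, H2-Aa, H2-Eb1, H2-DMa and H2-DMb1 lie together on chromosome 17, within 197 kb (34119693 to 34316674, GRCm38). H2-DMa spans 34119693 to 34139101, H2-DMb1 34153191 to 34160229, H2-Ab1 34263227 to 34269418 and H2-Eb1 34305867 to 34316674, all on the plus strand, and H2-Aa spans 34282744 to 34287823 on the minus strand. RefSeq places 12 genes in this stretch, of which 11 were listed and 9 tested. Of the 9, 4 were higher with IL-4, namely H2-Aa, H2-Eb1, H2-Ab1 and Tap1, 0 were lower and 5 passed no test, against 19.0% of all tested genes higher. H2-Ob and H2-DMb2, which lie in this stretch, did not pass the filter. In the fit without the filter both were lower with IL-4 (log2 fold changes -3.95 and -2.39), as described further on. H2-Aa and H2-Eb1 passed the filter through their IL-4 libraries. The counts of this stretch are therefore a description and carry no weight as a test of the region. The 3 class II chain genes stood next to each other at the H2-Eb1 end, whereas the tested genes between the H2-DM end and H2-Ob, among them the peptide transporter and immunoproteasome genes of the class I pathway, had log2 fold changes of 0.06 to 0.46.

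**Figure D3:**
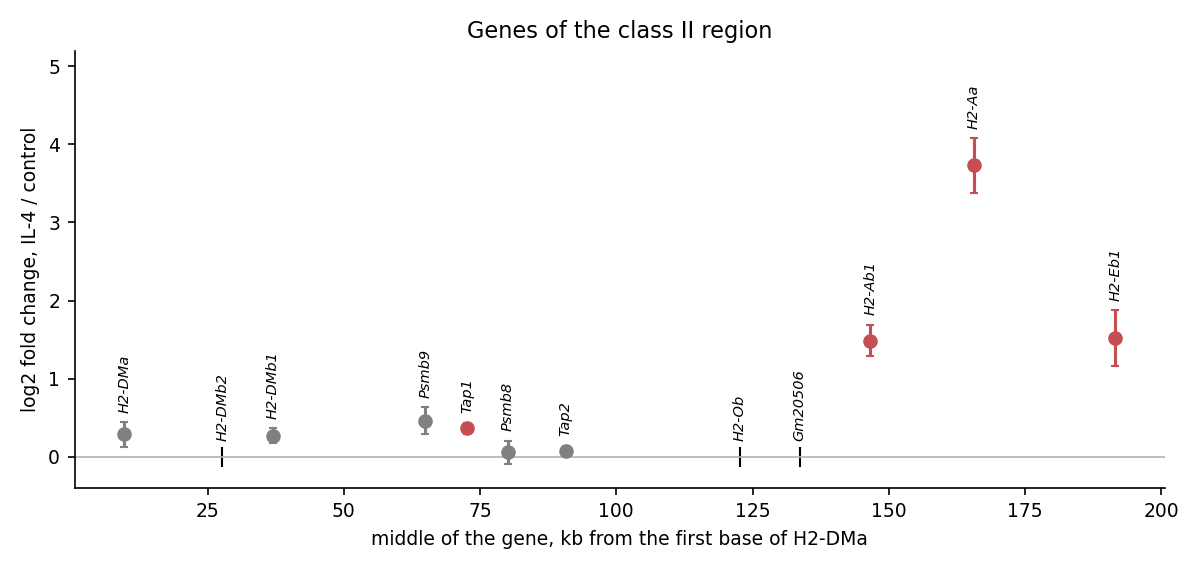
Fitted log2 fold change with its SE (y axis) of the 9 tested genes of the class II region, against the middle of each gene in kb from the first base of H2-DMa (x axis). Red points passed the test. Ticks at 0 mark the position of the 3 genes without a test and give no fold change. H2-Ab1, H2-Aa and H2-Eb1 lie between 1.49 and 3.73, and the other tested genes at 0.46 or less.

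The other class II genes had few reads, and H2-Ob and H2-DMb2 were lower with IL-4 in the fit without the filter. H2-Ob, which encodes a chain of H2-O, an inhibitor of H2-DM found mainly in B cells, had 5, 7 and 11 reads in the controls against 0, 1 and 0 reads with IL-4, without overlap. The scaled ratio of its summed reads, 1 against 23, was 0.0484 (95% interval 0.00117 to 0.298, for counting error only), and the log2 fold change without the filter was -3.95 (SE 0.92, edgeR adjusted p = 0.0101). H2-DMb2 had 5.43, 7.77 and 11.68 expected counts in the controls against 2.17, 1.09 and 1.08 with IL-4, again without overlap, and its log2 fold change without the filter was -2.39 (SE 0.64, edgeR adjusted p = 0.0212). This value carries the same uncertainty as that of H2-DMb1. H2-Oa, the partner of H2-Ob, had 2, 1 and 2 reads in the controls against 1, 0 and 0 with IL-4.

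The rise of the class II chains stood beside a fall of macrophage markers. The 4 class II genes above 1 FPKM in every library were set against these markers. Relative to the summed FPKM of the 12 macrophage markers, Cd74 was 18.5-fold higher with IL-4, H2-Ab1 6.42-fold, H2-DMa 2.73-fold and H2-DMb1 2.67-fold, and the groups did not overlap for any of the 4. With Ptprc alone as the denominator, the same values were 16.4-fold, 5.68-fold, 2.41-fold and 2.36-fold. H2-DMa itself was at 3.48 FPKM in the controls and 3.76 FPKM with IL-4, and H2-DMb1 at 11.9 and 12.7 FPKM. Their ratios thus mostly follow the fall of the denominators. Of the 12 markers 10 were lower, but Mrc1 rose (93.4 to 146 mean FPKM) and Cd68 was not called (247 to 288 mean FPKM). Ratios to these 2 were not taken. Between the groups the marker sum and the class II chains differed in opposite directions. Within the groups the order was mixed. Control replicate 3 had the highest control marker sum (4537 FPKM) and the highest control H2-Ab1 (2.67 FPKM). It also had the lowest H2-Aa (0.03 FPKM) and H2-Eb1 (0.11 FPKM), and its Cd74 (1.47 FPKM) lay below that of control replicate 2 (1.62 FPKM). IL-4 replicate 6 had the highest IL-4 marker sum (1787 FPKM), Cd74 (14.5 FPKM) and H2-Ab1 (5.25 FPKM), but the lowest IL-4 H2-Eb1 (0.41 FPKM). In both libraries transcripts under 1500 bases were high, and H2-Aa, H2-Ab1 and Cd74 are under this length. The part of macrophages or dendritic cells in the class II reads was not tested.

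**Figure D4:**
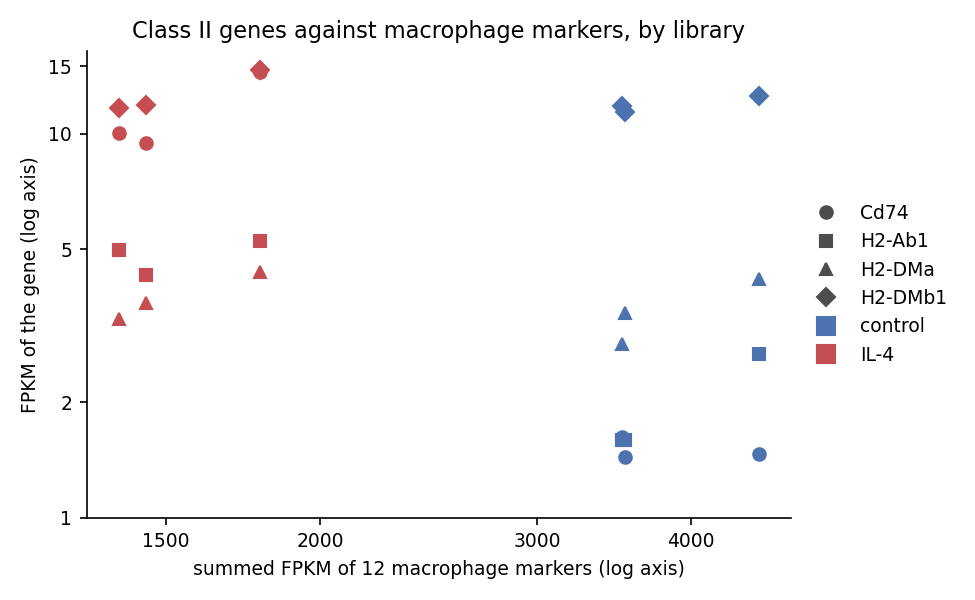
FPKM of Cd74, H2-Ab1, H2-DMa and H2-DMb1 (y axis, log) against the summed FPKM of 12 macrophage markers (x axis, log), with 1 point per gene and library and colours for the groups. The IL-4 libraries lie between 1373 and 1787 FPKM on the x axis with Cd74 at 9.47 to 14.5 FPKM, and the controls between 3512 and 4537 FPKM with Cd74 at 1.44 to 1.62 FPKM.

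Of 22 regulators of class II transcription, all tested, 4 were higher, 3 lower (6 when scaled by library totals) and 15 not called, where 19.0% of all tested genes were higher and 18.4% lower, with a median log2 fold change of 0.02, against 0.00 over all tested genes. The 3 RFX subunits Rfx5, Rfxap and Rfxank had log2 fold changes of -0.14 (SE 0.07), 0.15 (SE 0.12) and -0.05 (SE 0.08). Irf4, a transcription factor of lymphoid and myeloid cells, had 5, 14 and 12 reads in the controls against 135, 136 and 100 reads with IL-4, a log2 fold change of 3.72 (SE 0.30, edgeR adjusted p = 3.56e-05). Rises and falls of single genes are given here on the log2 scale. Socs1, an inhibitor of cytokine receptor signalling, rose by 3.19 (SE 0.16, edgeR adjusted p = 3.41e-06), from 91.2 to 120 normalized counts in the controls to 840 to 1200 normalized counts with IL-4. Irf8, a factor of the macrophage and dendritic lineages, fell by 1.16 on the log2 scale (SE 0.09, edgeR adjusted p = 3.23e-05). The interferon-gamma receptor chains Ifngr1 and Ifngr2 had log2 fold changes of 0.01 (SE 0.09) and 0.12 (SE 0.07). Jak1, the most abundant gene of the list at 71.3 FPKM in the controls, had a log2 fold change of 0.15 (SE 0.09).

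The proteases and helpers of endosomal processing rose in part. Of 11 such genes, 5 were higher, 0 lower (3 when scaled by library totals) and 6 not called, against 19.0% of all tested genes higher, with a median log2 fold change of 0.24. Ctsl, which encodes cathepsin L, a protease that degrades the invariant chain, rose by 1.35 (SE 0.10, edgeR adjusted p = 2.71e-05), from 184 to 416 mean FPKM. Ctsh, another cathepsin, rose by 1.10 (SE 0.09, edgeR adjusted p = 4.96e-05). Ctss, which cuts the invariant chain in professional antigen-presenting cells, rose by 0.79 (SE 0.14, edgeR adjusted p = 0.00277), and Ifi30, the lysosomal thiol reductase, by 0.88 (SE 0.15, edgeR adjusted p = 0.00200). The most abundant members Ctsd and Ctsb, both lysosomal proteases, had log2 fold changes of -0.10 (SE 0.08) and 0.25 (SE 0.09), without a call. Without IL-4 replicate 6, 8 of the 11 were higher.

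Class I presentation, the route by which all nucleated cells display peptides of their own proteins, shares the chromosomal region. Of its 18 genes, 9 were higher, 0 lower (1 when scaled by library totals or the upper quartile) and 9 not called, against 19.0% of all tested genes higher, with a median log2 fold change of 0.31. They ranged from -0.25 to 0.93, so none lay beyond 1, as 5.77% of tested genes did upward. B2m, the shared light chain and the most abundant gene of the list, rose by 0.58 (SE 0.11, edgeR adjusted p = 0.00331), and Calr, an endoplasmic reticulum chaperone, by 0.44 (SE 0.06, edgeR adjusted p = 0.000875). Nlrc5, the class I counterpart of Ciita, had a log2 fold change of -0.25 (SE 0.09, edgeR adjusted p = 0.0520).

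Costimulatory genes, whose products accompany class II on antigen-presenting cells, moved in both directions. The list of 8 genes also held Ccr7, which encodes a chemokine receptor and was not tested. The other 7 were tested, of which 3 were higher, 2 lower and 2 not called, against 19.0% and 18.4% of all tested genes. Pdcd1lg2, which encodes the inhibitory ligand PD-L2, had 0 reads in every control and 206, 209 and 214 reads with IL-4, so it was at least 77.8-fold higher, taking 3 counts per control library as the limit. Cd274, which encodes PD-L1, rose by 2.73 (SE 0.08, edgeR adjusted p = 2.02e-07), with 104 to 109 reads in the controls against 625 to 640 with IL-4. Cd86, a ligand that activates T cells, fell by 1.35 on the log2 scale (SE 0.19, edgeR adjusted p = 0.000939), and Icosl, the ligand of ICOS, fell by 1.46 (SE 0.14, edgeR adjusted p = 0.000106). Cd80 passed no test, at 0.07 (SE 0.09). Cd40 rose by 0.97 (SE 0.16, edgeR adjusted p = 0.00209).

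**Figure D5:**
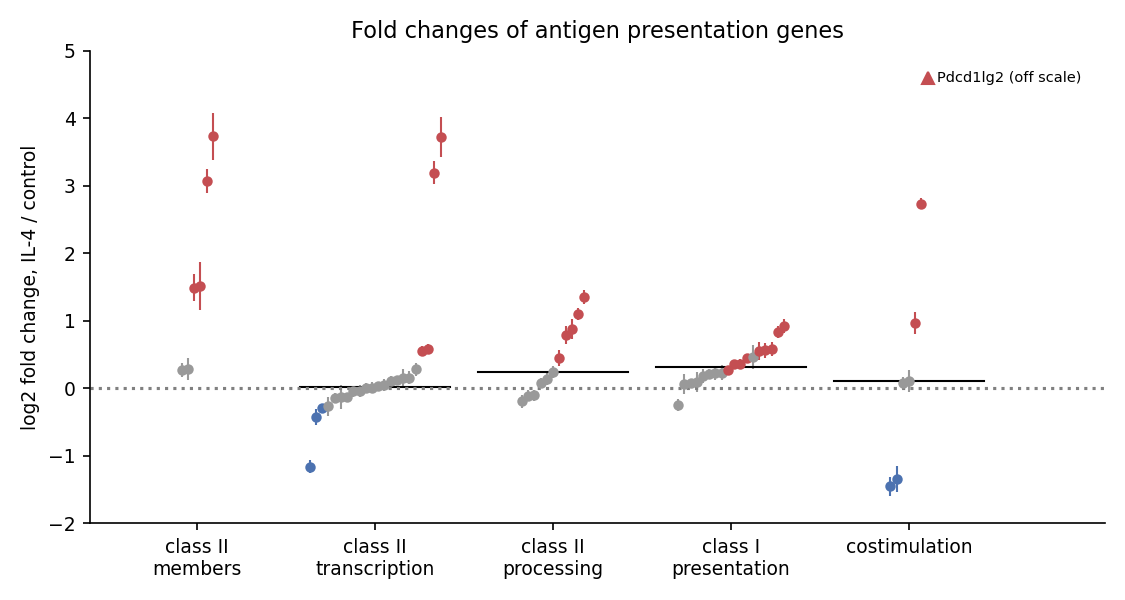
Fitted log2 fold change with its SE (y axis) of each tested gene of the class II genes and 4 related lists, red where higher, blue where lower and grey where no test was passed; black lines mark list medians (drawn for the 4 related lists), and the dotted line marks the median of all tested genes. The class II genes span 0.27 to 3.73, whereas the 18 class I genes all lie below 1; Pdcd1lg2 is off scale.

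The genes whose pattern over the 6 libraries was most like the mean of the 6 tested class II genes were Ch25h, which makes 25-hydroxycholesterol, Hfe, a class I-like regulator of iron uptake, Cntfr, a cytokine receptor chain, Ccl7, a chemokine, and Hddc3. Their Pearson r with the mean standardized level of the class II genes lay between 0.9987 and 0.9996 among 12240 genes compared. The libraries share their treatment and the 2 groups differ widely, so r measured mainly this difference: 15.9% of the genes compared had an r above 0.9.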

How the data were processed

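The members and gene lists were chosen with earlier results of these data known. The authors filtered reads with SOAPnuke and computed gene levels per library with Bowtie2 and RSEM on RefSeq transcripts, and the submitters' processing notes also name HISAT, StringTie and mm10. Versions are not given in the sources used here. The authors deposited raw expected counts beside FPKM scaled to transcript length and depth. A gene missing from a library's table had no read there and was set to 0. The deposited transcript length of each gene, in bases, was used for Ciita and Cd74. Reads shared between near-identical genes are divided by RSEM, and whether counting used strand is not given in the sources used here. One table line without a gene identifier (0.00016% of counts) was left out. The small RNA files were not used.

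Rounded expected counts passed filterByExpr (minimum count of 10, minimum total of 15) and were scaled by TMM in edgeR 4.0.16 (R 4.3.3). Groups were compared with the quasi-likelihood test, with SE computed as the fold change over the root of F. Normalized counts are scaled to the mean library size. Ratios and shares were compared by exact permutation tests. Intervals (95%) were computed from exact binomial intervals in scipy 1.17.1 and cover counting error only. Alternatives were DESeq2 1.42.0, other scalings, no filter, limma 3.58.1 on log2(FPKM + 1) or log2(FPKM + 0.1), and each library left out. The test was tried on simulated data.

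All 7 members were named in full. From each related list, genes past an adjusted p of 0.05 and a log2 fold change of 1 and the 2 most abundant by FPKM were named. Rfx5, Rfxap, Rfxank, Ifngr1, Ifngr2, Ctss, Ifi30, Nlrc5, Cd40, Ccr7, Mrc1, Cd68, Zbtb46, Xcr1, Clec9a, Cd22, Lck, Pdgfrb, Lum, Cd8a, Vwf, Tek, Cdh5, Emcn, Tap1 and Chil3 were named after their values were seen. Some genes of the lists are not reported here by name.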

Additional observations from a re-analysis of the deposited data

How the results depend on the processing

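Over 14 alternatives, the log2 fold changes of all 6 tested class II genes stayed above 0, and Cd74, H2-Aa and H2-Ab1 passed the test in each (highest adjusted p 0.000175, 0.00123 and 0.00509 across edgeR, DESeq2 and limma). H2-Eb1 did not pass without control replicate 1 (1.41, adjusted p 0.0507), and H2-DMb1 passed with an offset for transcript length (0.19, adjusted p 0.0269), an alternative added after the data had been seen. Leaving out 1 library at a time gave 2.88 to 3.18 for Cd74, 3.42 to 4.12 for H2-Aa, 1.36 to 1.77 for H2-Ab1, 1.25 to 1.99 for H2-Eb1, 0.16 to 0.43 for H2-DMa, 0.17 to 0.33 for H2-DMb1. The Ciita ratio of summed reads was 9.65 to 16.9 without 1 of the other 5 libraries and has no value without control replicate 3, which holds both control reads. The log2 difference of the H2-Aa to H2-Ab1 ratio was 1.76 to 3.01. Beyond a log2 fold change of 1 the class II count was 2 on the log2(FPKM + 1) scale, where the pseudocount holds low genes near 0. Library totals and the 2 limma scales shifted the median of all genes to -0.17, -0.13 and -0.17.

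With library totals, log2(FPKM + 1) and log2(FPKM + 0.1), 6 class II regulators each were lower, 3, 1 and 1 processing genes, and 1 class I gene each; upper-quartile scaling also gave 1 class I gene lower. Without control replicate 3 and IL-4 replicate 6, 7 regulators and 8 processing genes were higher and 1 processing gene lower, and with the length offset 8 were higher and 2 lower. Leaving out 1 library gave 4 to 8 processing genes higher. Leaving out 1 library, the log2 difference of the H2-DMa to H2-DMb1 ratio ran from -0.10 (without control replicate 2) to 0.14, and that of H2-Eb1 to H2-Ab1 from -0.42 (without control replicate 3) to 0.62. Relative to Ptprc, H2-DMa and H2-DMb1 differed by 1.27 and 1.24 on the log2 scale, against 1.45 and 1.42 relative to the marker sum. The other causes were not tested. No paired analysis was possible because the labels of the mRNA libraries share no replicate numbers between groups. Depth limits Ciita, H2-Aa and H2-Eb1 most, with 0 to 13 reads per control library.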
